A study of Rattus norvegicus with 192 samples.

Results

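The C/EBP transcription factors were followed in rats after a single inhalation of phosphine (PH3), a gas used against pests in stored grain that inhibits the last complex of the respiratory chain, or of air. The members were the probe sets whose platform annotation names only 1 gene and that gene is Cebpa, Cebpb, Cebpd, Cebpg or Cebpe. They came to 8 of 31042 probe sets and 5 of 13438 genes: 1 probe set each for Cebpa, Cebpb and Cebpe, 2 for Cebpg and 3 for Cebpd. Sets of a gene are numbered from the brightest to the dimmest, by their mean over all arrays.

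The PH3 groups were adult male Sprague-Dawley rats exposed in a whole-body chamber to 660 ppm of PH3 for 25 min. The labels give this product, 16500 ppm × min, as 0.71 of the median lethal product. The Air groups were the same strain and sex without PH3. Heart, kidney, lung, brain stem, olfactory bulb and blood were taken 1, 3, 6 and 24 h after exposure, and all rats of both exposures received ketamine and xylazine before they were bled out. A group held 4 rats, except that the Air group of olfactory bulb at 1 h held 5 and that of blood at 24 h held 3. Values are log2 intensities, so a difference of 1 is a doubling, and every effect is PH3 minus Air at the same time in the same tissue, with limma's standard error. A probe set was called when its p, adjusted over all 31042 probe sets of a contrast, was under 0.05.

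The 192 arrays came from 59 rat numbers, and no rat gave 2 arrays of a tissue, so p-values here refer to variation from rat to rat. All arrays correlated best with another array of their own tissue. Markers of the labelled tissue had a median position between the 91.0 percentile (olfactory bulb neurons in olfactory bulb) and the 99.9 percentile (lung epithelium in lung) of all probe sets in Air. Across arrays, 13 stood apart from the others of their tissue, among them the PH3 heart of Rat357 and the Air kidney of Rat345 at 1 h, and most C/EBP effects of a group that holds such an array are also given without it, as an alternative chosen after seeing the data.

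C/EBP proteins are bZIP factors: a leucine zipper joins 2 of them, or one of them with a relative, and a basic region binds DNA. C/EBP-alpha (Cebpa) drives terminal differentiation in fat, liver, lung epithelium and myeloid cells, while C/EBP-beta (Cebpb) and C/EBP-delta (Cebpd) are induced within a short time by inflammatory cytokines, glucocorticoids and cAMP. C/EBP-gamma (Cebpg) is made in most tissues, lacks a strong activation domain and pairs with other bZIP proteins, including ATF4. C/EBP-epsilon (Cebpe) acts late in the making of granulocytes.

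Promoter sequence is shown for Cebpb, whose level moved, beside Cebpg, which is present in every tissue here and was not called in any. Both windows hold the 250 bases before the annotated start in the RefSeq promoter table used here (GRCr8), in which Cebpa, Cebpb, Cebpg and Cebpe were matched and Cebpd was not. The Cebpb window is chr3:176816755-176817004 on the + strand and the Cebpg window is chr1:96829737-96829986 on the - strand. Capitals mark TATAAA and TGACG (or CGTCA, the same letters on the other strand) in Cebpb, and ATTGG, which is CCAAT on the other strand, in Cebpg.
Cebpb: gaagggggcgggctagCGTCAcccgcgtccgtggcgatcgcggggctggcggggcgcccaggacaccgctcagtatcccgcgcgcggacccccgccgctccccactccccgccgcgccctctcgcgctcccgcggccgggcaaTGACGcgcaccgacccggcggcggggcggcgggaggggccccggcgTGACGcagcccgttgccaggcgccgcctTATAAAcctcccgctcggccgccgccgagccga
Cebpg: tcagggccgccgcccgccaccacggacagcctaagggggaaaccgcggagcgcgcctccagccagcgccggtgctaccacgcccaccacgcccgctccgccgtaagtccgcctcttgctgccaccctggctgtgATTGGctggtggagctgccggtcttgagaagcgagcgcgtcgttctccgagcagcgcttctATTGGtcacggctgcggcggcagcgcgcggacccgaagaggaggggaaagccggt

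The Cebpb window was 80.0% G and C and held TATAAA 33 bases before the start. It held TGACG on either strand 234, 107 and 61 bases before the start. The Cebpg window was 70.4% G and C, held neither of those, and held CCAAT 116 and 55 bases before the start. Of 33469 windows of the same length, 12.9% held TATAAA, 18.2% TGACG and 34.0% CCAAT on either strand. The Cebpa window held TATAAA 35 bases before the start. The Cebpe window held TTCNNNGAA, the letters of a STAT site, 213 bases before it, as did 7.7% of windows. The full cAMP element TGACGTCA (1.6% of windows), the C/EBP core TTGCNNAA (9.2%) and the glucocorticoid element ACANNNTGT (5.8%) were searched on both strands and were in none of the 4 windows. A match of letters is a description of the window and shows no binding.

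In Air, each of the 5 genes had its own order of tissues. Levels are compared here within a probe set only, as the mean log2 intensity over the Air arrays of all 4 times (15 to 17 arrays, ± SD). Cebpb was highest in lung at 10.63 ± 0.21, then heart at 9.21 ± 0.40 and kidney at 8.64 ± 0.28. Blood at 6.89 ± 0.69 and brain stem at 6.75 ± 0.16 did not differ beyond their spread (0.14, adjusted p = 0.290), and olfactory bulb was lowest at 6.43 ± 0.36. Of the 15 pairs of tissues, 14 were called for Cebpb, where between 50.1% and 92.5% of all probe sets were called in a pair.

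Cebpd set 1 was highest in lung too, at 9.46 ± 0.71, but olfactory bulb came next at 7.83 ± 0.39, ahead of heart at 7.28 ± 0.38. Kidney followed at 6.64 ± 0.42, blood at 6.21 ± 0.80 and brain stem at 5.17 ± 0.40, and all 15 pairs were called. Set 2 gave the same order with blood (6.62 ± 0.62) ahead of kidney (6.26 ± 0.44), and again all 15 were called. Set 3 was dim everywhere: it had 4.32 ± 0.58 in blood and 2.97 to 3.38 in the other 5 tissues. None of the neighbours in the order of those 5 differed, but 9 of its 15 pairs were called, some of them within those 5 tissues. The order depended on the scaling in 2 places. The step from olfactory bulb to heart, 0.54 for set 1, was 0.25 (adjusted p = 0.124) with each array's median subtracted and 0.39 (adjusted p = 0.0511) after a quantile normalization of all arrays together, and for set 2 it was 0.26 (adjusted p = 0.0553) with the median subtracted. After the quantile normalization heart lay below blood for set 2 (heart minus blood -0.33, adjusted p = 0.021), and kidney minus blood was -0.30 for set 1, which was not called (adjusted p = 0.129). Blood RNA also went through a kit of its own, per the labels' protocols.

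Cebpa was highest in lung at 6.17 ± 0.27. Kidney at 4.72 ± 0.28 and blood at 4.51 ± 0.45 came next and did not differ from each other (adjusted p = 0.153). Heart followed at 3.62 ± 0.78, with single Air hearts between 3.01 and 5.75, and brain stem at 3.15 ± 0.17 and olfactory bulb at 3.11 ± 0.13 were last and did not differ (adjusted p = 0.845). Cebpg set 1 had the narrowest span of tissue means of the 5 genes' brightest sets. It had 8.76 ± 0.11 in lung and 8.58 ± 0.10 in kidney, which did not differ (adjusted p = 0.0885). Heart at 7.94 ± 0.13, olfactory bulb at 7.87 ± 0.25 and brain stem at 7.74 ± 0.09 came next, and blood was lowest at 7.19 ± 0.62. Olfactory bulb did not differ from heart or from brain stem. Of the 15 pairs 12 were called, heart against brain stem among them. After the quantile normalization the step between brain stem and blood turned round (brain stem minus blood -0.45). Set 2 kept lung, kidney, heart, olfactory bulb, brain stem and blood in that order, at 7.08, 6.99, 6.09, 5.63, 5.59 and 4.49. Cebpe stood highest in blood at 4.95 ± 0.53, and the other tissues lay between 2.94 in olfactory bulb and 3.57 in heart, between the 9.18 and 24.9 percentiles of all probe sets.

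**Figure D1:**
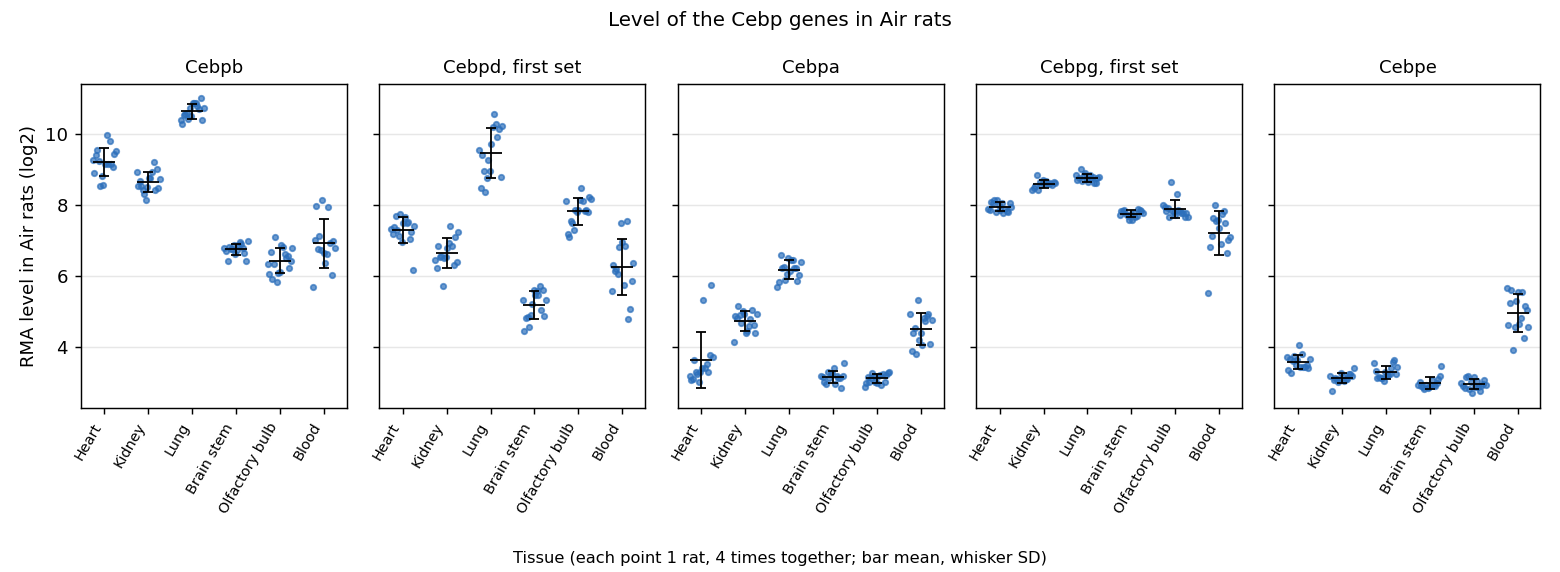
Level of Cebpb, Cebpd set 1, Cebpa, Cebpg set 1 and Cebpe in Air rats by tissue (log2 intensity, y axis). Each point is 1 Air array, with the 4 times together, the bar is the mean and the whisker the SD: Cebpb, Cebpd set 1 and Cebpa stand highest in lung, Cebpe in blood, and the tissue means of Cebpg set 1 span the narrowest range.

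The genes whose Air level followed a member most closely over the 24 groups of tissue and time were, by Pearson's r, Tmem204 (0.99), Erap1 (0.98) and Txnip (0.98) for Cebpb. For Cebpd set 1 they were Rpl27, Casp2 and Rbm3 (all 0.94), for Cebpa Tbx2, Ly6l and Sh2d4a (all 0.98) and for Cebpg set 1 Bcl10 (0.97), Smad2 (0.96) and Srsf9 (0.96). For Cebpe they were C20h6orf15, Ffar2 (both 0.99) and Eral1 (0.98). These are the highest values among all single-gene annotations, and the 24 points are 4 times in 6 tissues, so they mostly repeat the order of tissues.

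One hour after PH3, Cebpb rose in heart, kidney, lung and brain stem, and Cebpd rose in heart, kidney and lung. These were the only calls among the 8 probe sets in any tissue or time: 9 of 192 contrasts, all higher and all at 1 h. Cebpa, Cebpg and Cebpe had 0 calls. All 9 calls rest on a spread shared by the 8 groups of a tissue: in a fit of the 1 h groups alone each of them ended (adjusted p from 0.0628 to 0.352). The probe sets called in either direction were 0.915% of all in heart, 2.35% in kidney, 4.24% in lung and 0.306% in brain stem at 1 h, and 0.454%, 1.51%, 2.35% and 0.190% were called higher. In the olfactory bulb 0.00322% of all probe sets were called at 1 h, and in blood 0%, so the absence of calls among the members there is that of nearly the whole array. In whole tissue, more cells that make a transcript and more transcript per cell cannot be told apart.

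In the heart Cebpb had 10.83, 10.32, 10.13 and 10.60 in the PH3 Rat343, Rat350, Rat351 and Rat357, against 9.25, 8.88, 9.41 and 9.53 in the Air Rat345, Rat352, Rat353 and Rat354. The lowest PH3 heart lay above the highest Air heart, as for 3.42% of all probe sets. The effect was 1.20 ± 0.23 (adjusted p = 0.0068), a 2.30-fold rise. Cebpd set 1 had 9.16, 9.37, 8.24 and 9.19 in the PH3 hearts of the same rats, against 7.30, 7.17, 7.37 and 7.69 in the Air hearts. Those groups did not overlap either, and the effect of 1.61 ± 0.36 (adjusted p = 0.0215), 3.05-fold, was the largest of any member in any tissue. Set 2 gave 8.54, 8.78, 7.57 and 9.24 in PH3 hearts and 6.96, 6.73, 7.37 and 7.34 in Air hearts, an effect of 1.43 ± 0.36 (adjusted p = 0.0476). Without the arrays that stand apart, the PH3 heart of Rat357 among them, the call of set 2 ended (1.20, adjusted p = 0.0693), while Cebpb (1.16, adjusted p = 0.032) and Cebpd set 1 (1.54, adjusted p = 0.0091) were still called. That heart also had the highest 3′ minus 5′ index of RNA quality among the hearts of 1 h, 0.868, where PH3 hearts ran from 0.214 and Air hearts from 0.228 to 0.278; with the index as a covariate Cebpb stayed at 1.17 (adjusted p = 0.0084) and Cebpd set 1 at 1.45 (adjusted p = 0.025). Leaving out 1 rat at a time, the Cebpb call ended without Rat343 (adjusted p = 0.0532), that of Cebpd set 1 without Rat343, Rat345, Rat350, Rat352, Rat353 or Rat357 (adjusted p from 0.0658 to 0.0915), and that of set 2 without any 1 of the 8 rats of 1 h other than Rat351 (adjusted p up to 0.225).

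In the kidney Cebpb had 10.32, 9.50, 9.08 and 9.84 in the PH3 rats in the same order, against 8.93, 8.53, 8.67 and 8.52 in the Air rats. All PH3 kidneys lay above all Air kidneys, as for 3.27% of all probe sets, and the effect was 1.02 ± 0.19 (2.03-fold, adjusted p = 0.0019). Cebpd set 2 had 7.65, 7.15, 6.41 and 7.28 in PH3 kidneys, against 5.92, 5.92, 6.06 and 6.39 in Air kidneys, without overlap, and rose by 1.05 ± 0.24 (2.07-fold, adjusted p = 0.014). Set 1, the brighter of the pair, had 8.28, 7.65, 6.27 and 8.03 in PH3 kidneys and 6.43, 6.23, 6.85 and 6.52 in Air kidneys, so its groups overlapped. Its effect was also 1.05, with an SE of 0.31, and was not called (adjusted p = 0.0682). The low PH3 value was that of Rat351, and without that rat set 1 was called at 1.48 (adjusted p = 7.4e-04). Set 1 was also called when the dimmer probe sets were left out (adjusted p = 0.0438) and against the mean of the 4 Air groups (0.91, adjusted p = 0.02). The call of set 2 ended without the kidneys that stand apart, the Air kidney of Rat345 and a PH3 kidney of 6 h (1.00, adjusted p = 0.0516; set 1 then 1.03, adjusted p = 0.145, and Cebpb 1.11, adjusted p = 0.0025), and without Rat343 (0.88, adjusted p = 0.0860) or Rat357 (adjusted p = 0.0533). With the rat as replicate block, in a fit that gives all tissues 1 spread per probe set, the Cebpb call in kidney ended (adjusted p = 0.0503), as did that of Cebpd set 2 (0.315).

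In the lung, the tissue with the highest Air level of both genes, Cebpb had 11.36, 10.86, 10.50 and 11.26 in PH3 rats, against 10.39, 10.27, 10.52 and 10.56 in Air rats. The groups overlapped, since Rat351 lay below 2 of the Air lungs, and the effect of 0.56 ± 0.13 (1.48-fold, adjusted p = 0.012) was the smallest of the 4 calls of Cebpb. Cebpd set 1 had 10.87, 10.49, 9.51 and 10.51 in PH3 lungs, against 9.55, 8.48, 9.40 and 8.94 in Air lungs, with Rat351 again inside the Air range. Its effect was 1.26 ± 0.34 (2.39-fold, adjusted p = 0.0268). Set 2 had 10.20, 9.86, 8.93 and 9.92 in PH3 lungs, against 8.88, 8.19, 8.84 and 8.84 in Air lungs. Here the groups did not overlap, as for 4.33% of all probe sets, and the effect was 1.04 ± 0.30 (2.06-fold, adjusted p = 0.039). With the rat as replicate block and its 1 spread for all tissues the 3 lung calls ended, at adjusted p = 0.813 for Cebpb, 0.122 for Cebpd set 1 and 0.226 for set 2. That of set 2 also ended with limma's trend and robust prior (adjusted p = 0.0544) and against the mean of the 4 Air groups (0.70, adjusted p = 0.0564). The Cebpb call also ended without Rat343, Rat352 or Rat357 (adjusted p from 0.0548 to 0.0851), that of Cebpd set 1 without Rat343, Rat350, Rat352, Rat354 or Rat357 (adjusted p up to 0.127), and that of set 2 without any 1 of the 8 rats of 1 h other than Rat351 (adjusted p up to 0.164).

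In the brain stem Cebpb had 7.72, 7.29, 6.90 and 7.38 in PH3 rats, against 6.78, 6.71, 6.41 and 6.82 in Air rats. The PH3 brain stems all lay above the Air ones, as for 2.15% of all probe sets, and the rise was 0.65 ± 0.13 (1.56-fold, adjusted p = 0.0226). This call ended with the rat as replicate block (adjusted p = 1.00) and without Rat343, Rat350, Rat352, Rat353 or Rat357, each of them left out alone (adjusted p from 0.0524 to 0.177). Cebpd set 1 had 5.97, 5.79, 5.04 and 5.83 in PH3 brain stems, against 5.32, 4.45, 4.80 and 4.82 in Air ones. Its effect of 0.81 ± 0.22 was not called (adjusted p = 0.161), nor was that of set 2, 0.85 ± 0.24 (adjusted p = 0.222). Without Rat351 both were, at 1.01 (adjusted p = 0.0226) and 1.11 (adjusted p = 0.0231).

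The other tissues had no calls of Cebpb or Cebpd at 1 h. In the olfactory bulb Cebpd set 1 had 8.01, 7.97, 8.04 and 8.57 in PH3 rats, against 8.11, 7.18, 7.09, 7.55 and 7.47 in Air rats, an effect of 0.67 ± 0.20 (adjusted p = 0.945). All but 1 of the Air bulbs lay below all the PH3 bulbs. Cebpb there had 6.69, 6.61, 5.97 and 6.71 in PH3 rats and 6.34, 6.06, 6.66, 5.91 and 6.33 in Air rats, with full overlap (0.23 ± 0.33, adjusted p = 0.998). In blood Cebpb had 7.42, 7.95, 7.34 and 7.19 in PH3 rats and 5.67, 7.01, 7.96 and 6.75 in Air rats (0.63 ± 0.44, adjusted p = 0.756). Blood was the 1 tissue where the effects of Cebpd sets 1 and 2 were negative. Set 1 had 3.45, 5.83, 7.06 and 4.13 in PH3 rats, against 5.58, 6.29, 6.12 and 6.20 in Air rats (-0.93 ± 0.67, adjusted p = 0.771). The PH3 bloods spread far more (SD 1.64) than the Air bloods (SD 0.32), with 2 of them far below and 1 above the Air range.

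**Figure D2:**
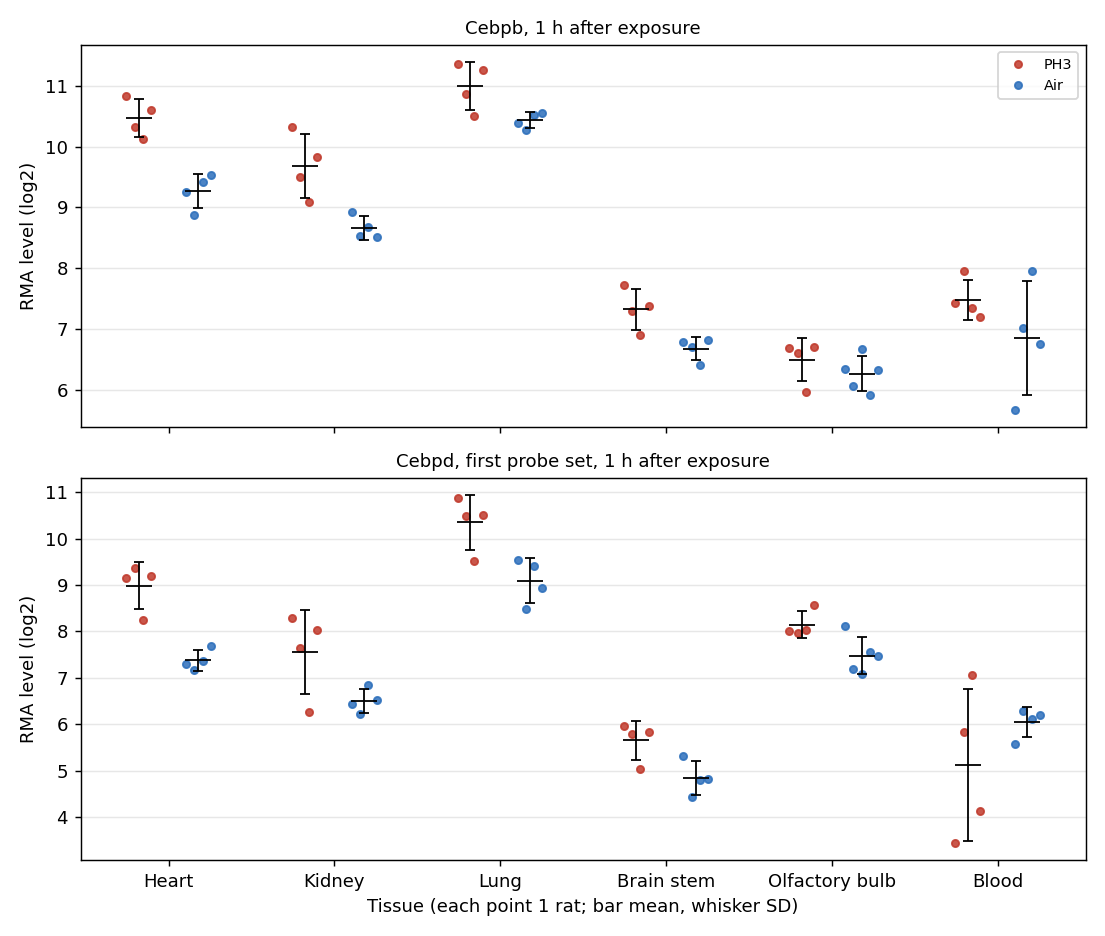
Cebpb (upper panel) and Cebpd set 1 (lower panel) at 1 h in 6 tissues (log2 intensity, y axis), PH3 left and Air right in each pair. Points are single rats, bars means and whiskers SDs: in heart all PH3 points lie above all Air points in both panels, in lung the lowest PH3 point reaches into the Air range, and in blood the PH3 points of Cebpd set 1 are widely spread.

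Heart, kidney, lung and brain stem came from the same 4 PH3 rats, so the calls there are not independent observations. Cebpb placed the rats in the order Rat343, Rat357, Rat350, Rat351 from high to low in each of the 4 tissues. Cebpd sets 1 and 2 placed them in the same order in kidney, lung and brain stem, and in heart Rat351 was also the lowest. In blood the order for Cebpd set 1 was Rat351, Rat350, Rat357, Rat343, so the rat with the lowest value in the solid tissues had the highest in blood for this set. For set 2 the highest blood was that of Rat350, with Rat351 next, and for set 3 Rat351 had the lowest. The order was not seen for the called genes alone. Cebpa, which was not called, had the order of Cebpb in heart and kidney, and Rat351 was lowest for it there and in brain stem. Rat351 was also lowest for Cebpe in heart and kidney, where that gene is dim. Elsewhere other rats were lowest: Rat350 for Cebpa in lung, and Rat357 in lung and Rat343 in brain stem for Cebpe. For Cebpg set 2, Rat351 was lowest in heart, Rat357 in kidney and brain stem and Rat350 in lung. For Cebpg set 1, Rat357 was highest in all 4 solid tissues, and the lowest was Rat351 in heart, Rat343 in kidney and lung and Rat350 in brain stem. The labels give no exposure reading per rat.

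**Figure D3:**
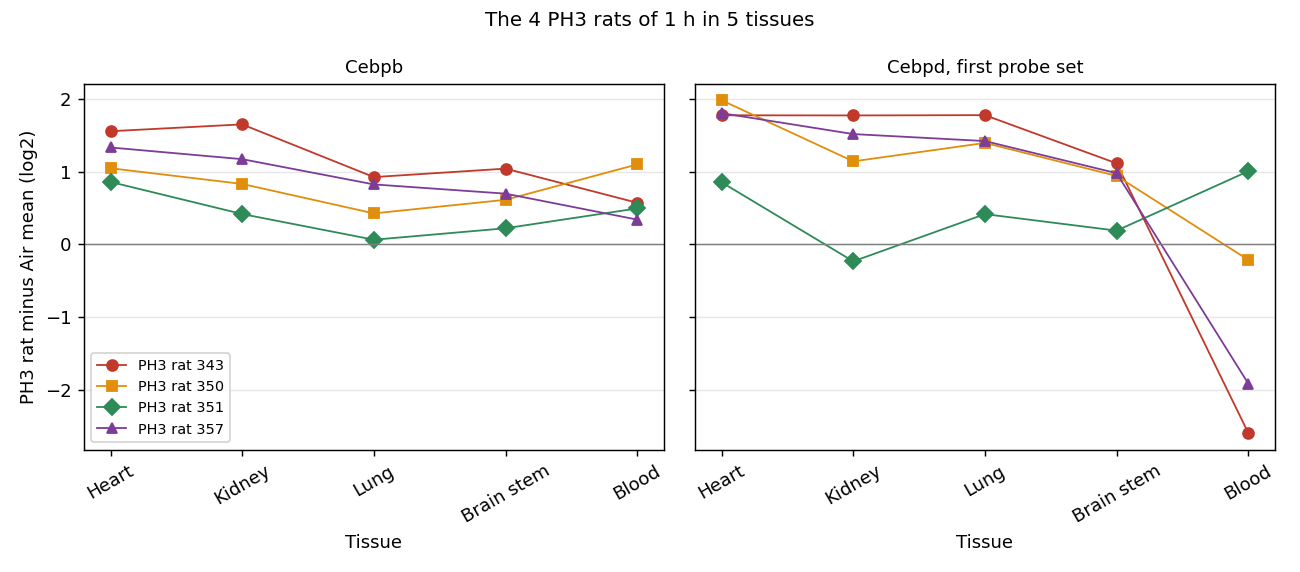
Level at 1 h of Cebpb (left) and Cebpd set 1 (right) in each of the 4 PH3 rats, joined across 5 tissues, as the difference from the Air mean of the tissue (log2, y axis). Rat351 is lowest in heart, kidney, lung and brain stem, and in blood it lies above the Air mean for Cebpd set 1, where Rat343 is lowest.

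Whether the effect differed between tissues was tested at each time, weighing each tissue by its own standard error. The test took the tissues as independent, although the 1 h samples other than olfactory bulb came from the same rats. At 1 h no member was called (adjusted p = 0.413 for Cebpb, 0.247 for Cebpd set 1 and 0.296 for set 2), where 3.09% of all probe sets were. Of the pairs of tissues, the widest gap for Cebpd set 1 was heart against blood, 2.54 ± 0.76 (unadjusted p = 0.0018, adjusted p = 0.205). For Cebpb it was heart against olfactory bulb, 0.97 ± 0.40 (adjusted p = 0.394). The olfactory bulbs of 1 h came from other rats than the hearts, so tissue and animals cannot be told apart there. An F test with the rat as replicate block did call Cebpd at 1 h (adjusted p = 0.0096 for set 1 and 0.0135 for set 2). It rests on 1 spread for all tissues. In the fits by tissue the SE of set 1 at 1 h was 0.67 in blood, 0.36 in heart and 0.20 in olfactory bulb. The call in some tissues and not in others is therefore not shown to be a difference between tissues by the first test.

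At 3, 6 and 24 h no member was called in any tissue, while 9.89% of all probe sets were called in lung at 3 h, 0.303% in kidney, 0.0161% in brain stem and 0.00644% in heart. The lungs of 3 h differed in the RNA index, which ran from 0.095 to 0.247 in PH3 lungs and from 0.343 to 0.521 in Air lungs, without overlap. With the index as a covariate 0.0129% of all probe sets were called there, and 0 of the 15 list and marker genes called in lung at 3 h were still called. As the index separates the groups, exposure and RNA quality cannot be told apart there. Some of these calls ended with the effect nearly unchanged and a larger standard error. At 6 and 24 h at most 0.0161% were called in any tissue. In heart the Cebpb effect was 0.38 at 3 h, -0.38 at 6 h and -0.55 ± 0.23 at 24 h. At 24 h the PH3 hearts had 8.84, 8.90, 8.67 and 8.54, all below the Air hearts at 9.15, 9.06, 9.43 and 9.51, as for 1.03% of probe sets, but the difference was not called (adjusted p = 0.676, and -0.50 without the Air heart of Rat340, which stands apart). The effect of Cebpb in heart differed between the 4 times (adjusted p = 0.0342), as it did for 0.116% of all probe sets. It was 1.58 ± 0.32 larger at 1 h than at 6 h (adjusted p = 0.0455, 0.0934% of all probe sets) and 1.75 ± 0.32 larger than at 24 h (adjusted p = 0.0109, 0.396%). The test over times was no longer past 0.05 without the arrays that stand apart (adjusted p = 0.115), nor without Rat333, Rat341, Rat343, Rat345, Rat350, Rat352, Rat353, Rat357, Rat375, Rat394 or Rat502, each left out alone (adjusted p up to 0.133).

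In lung the Cebpb effect differed between times too (adjusted p = 0.0138, against 4.82% of all probe sets), and at 1 h it was 0.80 ± 0.19 above that at 3 h (adjusted p = 0.0211, 2.61% of all called) and 0.91 ± 0.19 above that at 6 h (adjusted p = 0.0071, 2.17%). At 6 h the PH3 lungs had 10.51, 10.48, 10.57 and 10.42, against 10.86, 10.87, 10.88 and 10.77 in Air lungs. All 4 PH3 lungs lay below the Air lungs, as for 1.41% of probe sets, and the effect was -0.35 ± 0.13 (adjusted p = 0.983). The same held at 3 h, with an effect of -0.24 (adjusted p = 0.280, -0.23 without the Air lung of Rat355 and -0.12 with the RNA index as a covariate), as for 5.28% of probe sets.

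In kidney the Cebpb effect was 0.24 at 3 h, -0.07 at 6 h and 0.01 at 24 h, and its test over times was not called (adjusted p = 0.125, 0.490% of all probe sets called). In brain stem it lay between -0.09 and -0.05 at the later times (adjusted p = 0.270 over times, 0.0709% of all called). Olfactory bulb at 6 h had the largest later value of Cebpb, 0.63 ± 0.35 (adjusted p = 0.524). It came from Rat381 and Rat391, at 8.38 and 8.32, beside 6.51 and 6.07 in the other PH3 rats and 6.87, 6.81, 6.60 and 6.49 in Air rats. The arrays of both of those rats stand apart from the other olfactory bulbs, and without them the effect was -0.40 (adjusted p = 1.00).

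Cebpd in lung was positive at 3 h as well, without a call. Set 1 had 8.91, 9.64, 10.30 and 9.75 in PH3 lungs at 3 h, against 8.35, 8.75, 9.25 and 8.94 in Air lungs, an effect of 0.83 ± 0.34 (adjusted p = 0.116), with 1 PH3 lung inside the Air range, and 0.67 (adjusted p = 0.296) without the Air lung of Rat355. With the RNA index, which separates the groups of lung at 3 h, as a covariate it was 0.64 (adjusted p = 0.695). At 6 h it was -0.47 and at 24 h 0.08, and the test over times gave adjusted p = 0.0762. The Air lungs themselves differed between times: set 1 averaged 9.09 at 1 h, 8.82 at 3 h, 10.19 at 6 h and 9.76 at 24 h in Air (adjusted p = 0.0207), as did 12.2% of all probe sets in lung. That call of the Air times ended without the Air lung of Rat355 at 3 h, which stands apart (adjusted p = 0.0657), without Rat388 (adjusted p = 0.0556) and with the RNA index as a covariate (adjusted p = 0.388). In the other 5 tissues no member differed between Air times, where 0.548% of all probe sets did in heart, 0.00322% in kidney, 7.80% in brain stem, 1.39% in olfactory bulb and 0% in blood. In kidney the test of set 2 over times was not called (adjusted p = 0.159). Of its pairs of times, the effect at 1 h was above that at 6 h by 1.48 ± 0.34 (adjusted p = 0.0349, with 0.631% of all probe sets called), and the pairs of 1 h with 3 h (0.74, adjusted p = 0.658) and 24 h (0.56, adjusted p = 0.630) were not called. At 6 h both sets lay below Air in every PH3 kidney (-0.46 for set 1, -0.43 for set 2, neither called, and -0.45 for both without Rat387), as for 2.44% of probe sets. In heart the effects of set 1 at 3, 6 and 24 h were 0.59, 0.20 and 0.46, and without the arrays that stand apart 0.31 at 3 h and 0.20 at 24 h. In blood at 24 h set 1 was at -1.21 ± 0.73 (adjusted p = 0.784) and at -1.49 without Rat341, whose array stands apart. This the fit with the replicate block and its 1 spread for all tissues called (adjusted p = 0.036).

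**Figure D4:**
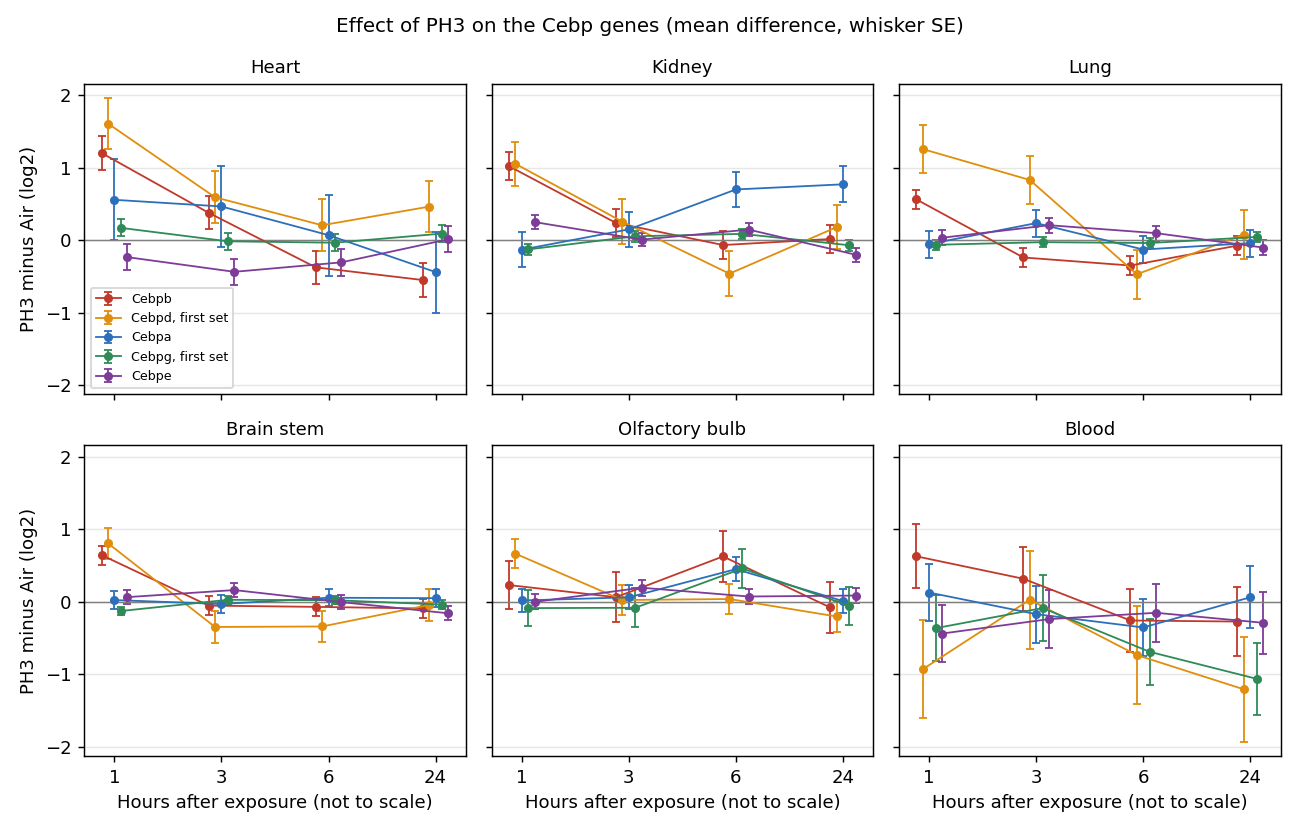
PH3 minus Air (log2, y axis) of Cebpb, Cebpd set 1, Cebpa, Cebpg set 1 and Cebpe at 1, 3, 6 and 24 h (x axis, not to scale) in 6 tissues. Points are limma effects and whiskers standard errors: Cebpb and Cebpd set 1 stand highest at 1 h in heart, kidney, lung and brain stem, and whiskers are long in blood for all 5 and in heart for Cebpa.

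Cebpd set 3 ran apart from sets 1 and 2 of the same gene. Over the 24 contrasts, which share rats between tissues, the effects of sets 1 and 2 correlated at r = 0.92, and those of set 3 with set 1 at -0.40. Set 3 was not called, and in the solid tissues its effects stayed between -0.14 and 0.21. In blood it was 0.84 at 1 h (adjusted p = 0.561), with 4.97, 5.44, 3.95 and 5.63 in PH3 rats, against 4.62, 4.33, 3.32 and 4.36 in Air rats. At 3 h all PH3 bloods, at 4.85, 5.12, 4.44 and 4.75, lay above the Air bloods at 4.29, 4.41, 4.16 and 3.90, as for 1.10% of probe sets, though the effect of 0.60 was not called. With the rat as replicate block set 3 was called higher in blood at 1 h (adjusted p = 5.9e-04), 3 h (0.039) and 24 h (0.030). Without Rat353 its 1 h effect was 0.56, and at 24 h its effect ran from 0.41 without Rat340 to 0.92 without Rat328. What set 3 reads on the transcript was not examined.

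Cebpa had no call in 24 contrasts, with effects from -0.44 to 0.77 and a smallest adjusted p of 0.473. The lowest effect, in heart at 24 h, was 0.10 without the Air heart of Rat340, and the smallest p, in olfactory bulb at 6 h (0.45), was 1.00 without the arrays of Rat381 and Rat391 (0.17). Its largest effects were the late ones in kidney. At 6 h it had 5.24, 5.29, 5.29 and 5.15 in PH3 kidneys, against 4.37, 4.44, 4.59 and 4.77 in Air kidneys, a difference of 0.70 ± 0.25 (unadjusted p = 0.0084, adjusted p = 0.566), and 0.68 without the PH3 kidney of Rat387, which stands apart. At 24 h it had 5.78, 5.35, 5.24 and 5.63 in PH3 kidneys, against 5.02, 4.60, 4.38 and 4.91 in Air kidneys, 0.77 ± 0.25 (unadjusted p = 0.0041, adjusted p = 0.668). At both times the groups did not overlap, as for 1.77% of all probe sets at 6 h and 2.47% at 24 h, and these are different rats at the 2 times. At 1 and 3 h the effect was -0.13 and 0.15. With 0.0161% of all probe sets called in kidney at 6 h and 0% at 24 h, neither time gave a Cebpa value past the adjustment.

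**Figure D5:**
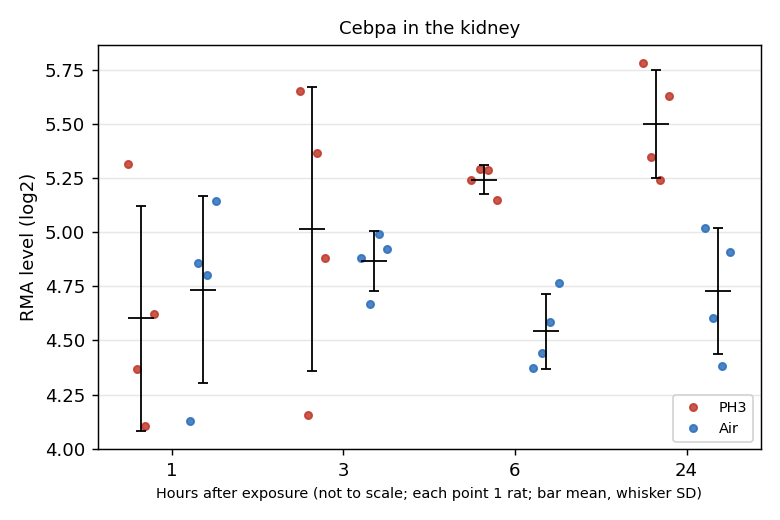
Cebpa in kidney at 1, 3, 6 and 24 h (log2 intensity, y axis), PH3 left and Air right at each time, with single rats as points, means as bars and SDs as whiskers. The PH3 kidneys lie above all Air kidneys at 6 and 24 h and overlap with them at 1 and 3 h.

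Cebpg had 0 calls. In solid tissue set 1 had effects from -0.13 to 0.46. The highest, in olfactory bulb at 6 h, came from the array of Rat381, which stands apart, at 9.86 where the other PH3 bulbs had 7.83 to 7.98. Without the arrays that stand apart it was -0.02 (adjusted p = 1.00). At 1 h it averaged 8.13 in PH3 hearts and 7.97 in Air hearts, 8.43 in PH3 kidneys and 8.56 in Air kidneys, and 8.75 in PH3 lungs and 8.82 in Air lungs. Its largest negative value was in blood at 24 h, where PH3 rats had 5.25, 5.92, 7.74 and 4.48, against 6.63, 7.02 and 7.09 in Air rats (-1.06 ± 0.49, adjusted p = 0.765). Left out 1 at a time, Rat333 moved this to -1.69 and Rat341, whose array stands apart, to -0.60. It was called with the rat as replicate block and its 1 spread for all tissues (adjusted p = 0.001). So were set 1 in blood at 6 h (-0.69, adjusted p = 0.039) and set 2 in blood at 1 h (-0.64, adjusted p = 0.045). Left out 1 at a time, Rat343, Rat345 and Rat357 moved this last effect to -0.42, -1.03 and -0.41. Set 2 in lung at 3 h had 7.05, 7.17, 7.33 and 7.17 in PH3 rats, against 6.91, 6.96, 6.98 and 6.98 in Air rats. Those groups did not overlap, as for 7.80% of all probe sets, but the effect of 0.22 ± 0.09 was not called (adjusted p = 0.114). It was 0.21 without the Air lung of Rat355, and -0.01 with the RNA index as a covariate.

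Cebpe was dim outside blood, and its effects ran from -0.44 to 0.25 with 0 calls. The lowest was in heart at 3 h, where PH3 hearts had 3.23, 3.18, 3.14 and 3.14, against 3.59, 3.75, 3.49 and 3.62 in Air hearts (-0.44 ± 0.18, adjusted p = 0.980), and the effect was -0.47 without the hearts of Rat368 and Rat370, which stand apart. All PH3 values lay below all Air values, as for 1.04% of probe sets. The highest was in kidney at 1 h, with 3.28, 3.41, 3.19 and 3.20 in PH3 rats and 3.16, 2.75, 3.06 and 3.12 in Air rats (0.25 ± 0.09, adjusted p = 0.208, and 0.29 without the Air kidney of Rat345). Those groups did not overlap, as for 3.27% of probe sets, nor did those of brain stem at 3 h (0.16 ± 0.10, adjusted p = 0.866), as for 2.36%.

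The genes whose PH3 effect over the 24 contrasts was most like that of Cebpb were Tob2 (r = 0.84), Csrnp1 (0.79) and Zfp36 (0.78), which encodes a protein that speeds the decay of cytokine mRNAs. For Cebpd set 1 they were Clec10a (0.86), a lectin of macrophages, Sh2b3 (0.84), an adaptor that dampens cytokine signals, and Litaf (0.82). For Cebpa they were Acot12 (0.78), Ttpa (0.72), a vitamin E transfer protein, and Gulo (0.68), the last enzyme of vitamin C synthesis. For Cebpg set 1 they were Selenos (0.91), Rpn1 (0.91) and Bnip2 (0.89), and for Cebpe Prps2 (0.72), Ube2b (0.66) and Sbno1 (0.65). The largest effects of Cebpg set 1 were those of blood at 24 h (-1.06) and 6 h (-0.69) and of olfactory bulb at 6 h (0.46). Without the arrays that stand apart they were -0.60 in blood at 24 h and -0.02 in olfactory bulb at 6 h. The part of such arrays in its likeness was not tested. Cebpb and Cebpd set 1 correlated with each other at 0.55. These are the highest of all genes compared, over contrasts that share rats, and are descriptions without a test.

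The lists of signals known to induce Cebpb and Cebpd were read in the same fits, and were chosen with earlier results of these data known. Of 14 measured glucocorticoid-induced genes, 6 rose in heart, 10 in kidney, 11 in lung and 9 in brain stem at 1 h and 0 fell, with median effects of 1.26, 0.81, 1.32 and 0.91 beside medians over all probe sets within 0.01 of 0. Of all probe sets, 0.454%, 1.51%, 2.35% and 0.190% were called higher in those tissues. In olfactory bulb and blood 0 were called, with medians of 0.21 and 0.13. Fkbp5, a co-chaperone of the glucocorticoid receptor, rose by 1.40 ± 0.15 in heart (adjusted p = 8.1e-06), 1.16 ± 0.17 in kidney (1.6e-04), 2.38 ± 0.28 in lung (6.0e-06) and 1.17 ± 0.14 in brain stem (4.3e-05). Sgk1, a kinase that acts on ion transport, rose by 1.63 in heart (adjusted p = 0.0127), 1.15 in kidney (0.0104) and 1.93 in brain stem (0.0265). Mt2A, a metallothionein, rose by 2.63 in heart (adjusted p = 0.0019) and 2.59 in lung (1.4e-06). It rose less in kidney (0.59, adjusted p = 0.0066) and brain stem (0.99, adjusted p = 0.0273). The largest rise of the list in kidney was that of Cdkn1a (1.83). The tissues in which at least 6 of these 14 genes rose are the 4 in which Cebpb rose, a match seen after both were counted, and they are also the 4 with the most calls over all probe sets. At 3 h Fkbp5 was still higher in kidney (1.30), lung (1.02) and brain stem (0.87), when no C/EBP gene was called. The lung call ended with the RNA index as a covariate (0.81, adjusted p = 0.513).

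Of 9 measured genes of hormone and cAMP signalling, 1 rose at 1 h in heart, kidney and lung, where 0.454%, 1.51% and 2.35% of all probe sets were called higher. It was Crem, which encodes cAMP-responsive regulators, at 1.41 ± 0.23 in heart (adjusted p = 0.0013), 0.88 ± 0.23 in kidney (0.0373) and 1.97 ± 0.24 in lung (7.8e-06). The median effects of the list were -0.21, -0.13 and -0.22. Of 14 measured cytokines and cytokine receptors, 1 was called in heart and 1 in lung, and 0 in the other tissues, where 0.915% of all probe sets were called in heart and 4.24% in lung. Il6, the cytokine behind an older name of C/EBP-beta, NF-IL6, rose in heart by 1.21 ± 0.26 (adjusted p = 0.0186). Il6r, its receptor, rose in lung by 0.76 ± 0.13 (adjusted p = 3.6e-04). The median effects of this list lay between -0.17 in blood and 0.12 in heart. In lung at 3 h Nr3c2, the mineralocorticoid receptor (-0.41), and Ep300, a histone acetyltransferase (-0.36), fell among the hormone genes, where 9.89% of all probe sets were called. Both calls ended with the RNA index as a covariate (-0.22 and -0.15, adjusted p = 0.600 and 0.758).

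Of the 13 measured bZIP partners, 3 rose in heart, 6 in kidney, 3 in lung and 1 in brain stem at 1 h and 0 fell, where 0.454%, 1.51%, 2.35% and 0.190% of all probe sets were called higher. Atf3, a stress-induced repressor, rose by 4.03 ± 0.55 in heart (adjusted p = 1.8e-04), 3.39 ± 0.26 in kidney (2.7e-09) and 1.11 ± 0.29 in lung (0.0254). Nfil3, which binds C/EBP-like sites, rose in kidney (1.38), lung (1.17) and brain stem (0.73). Junb (2.04) and Fosl2 (1.25), subunits of AP-1, rose in heart, and Fosl2 also rose in kidney (0.91, adjusted p = 3.2e-05). Ddit3, which encodes the C/EBP relative CHOP, rose in kidney by 1.24 ± 0.18 at 1 h (adjusted p = 1.2e-04) and 1.29 at 3 h (adjusted p = 2.9e-04). Atf4, a partner of C/EBP-gamma, rose by 0.60 in kidney and 0.28 in lung at 1 h. In lung at 3 h Atf2 (0.59), Fosl2 (0.57) and Ddit3 (0.53) were higher, where 9.89% of all probe sets were called. With the RNA index as a covariate all 3 calls ended (adjusted p from 0.404 to 0.675). The effects were then 0.21 for Atf2, 0.56 for Fosl2 and 0.26 for Ddit3.

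Among 10 measured regulators of C/EBP proteins, Socs3, which dampens STAT3 signals, rose in heart by 1.83 ± 0.42 (adjusted p = 0.0263) and Trib3, a pseudokinase, by 1.01 ± 0.24 (adjusted p = 0.0375). Trib2, a pseudokinase that promotes the breakdown of C/EBP-alpha, fell by 0.63 in heart (adjusted p = 0.0362) and by 0.57 in lung (adjusted p = 0.0217). These were the only calls of the list at 1 h by the brightest probe set of each gene, where 0.915% of all probe sets were called in heart and 4.24% in lung.

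The targets that C/EBP-beta and C/EBP-delta are known to serve in inflammation and the acute phase were counted in the same way. Of 19 measured, 3 rose in heart, 1 fell in kidney, 1 rose and 1 fell in lung, and 0 were called in the other tissues at 1 h, with medians of 0.02 in heart, 0.08 in kidney and 0.03 in lung. Over all probe sets 0.915% were called in heart, 2.35% in kidney and 4.24% in lung. Ptgs2, which makes prostaglandins, rose by 2.34 ± 0.53 in heart (adjusted p = 0.025), and Cxcl1, a chemokine for neutrophils, by 1.99 ± 0.47 (adjusted p = 0.0336). Il6 is on this list as well. Tnfaip6 rose in lung by 1.59 ± 0.21 (adjusted p = 2.3e-05) and was still higher at 3 h (1.09), a call that ended with the RNA index as a covariate (0.97, adjusted p = 0.288). Ccl2, a chemokine for monocytes, fell by 1.61 in kidney (adjusted p = 0.0109) and by 1.31 in lung (adjusted p = 0.0016), in the same samples in which Cebpb and Cebpd rose. Of 12 measured targets of C/EBP-alpha in fat, liver and lung, 0 were called at any time, and of 6 measured granule genes of C/EBP-epsilon 0 were called at 1 h. In lung at 3 h 3 of those 6 rose, Mmp8 (1.36), S100a8 (1.41) and S100a9 (1.21), when Cebpe itself was at 0.21 (adjusted p = 0.225) and 9.89% of all probe sets were called. With the RNA index as a covariate they were at 1.06, 1.34 and 1.23 and not called (adjusted p from 0.325 to 0.429). They are also neutrophil markers.

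Markers of other cells were read beside the 1 h calls. The 4 measured red cell markers all had positive effects in heart, kidney and lung. Their mean level ran from 6.51 to 7.41 in PH3 hearts and 5.78 to 7.03 in Air hearts, 5.67 to 6.22 in PH3 kidneys and 5.08 to 5.63 in Air kidneys, and 6.34 to 6.77 in PH3 lungs and 5.56 to 6.61 in Air lungs. In kidney 2 of them were called, Alas2 (1.38) and Ahsp (0.82), where 2.35% of all probe sets were. In Air, blood had a mean red cell level of 11.78 to 12.02. Its Cebpb level, 6.89, was below those of heart, kidney and lung. For Cebpd set 2 blood at 6.62 was above kidney at 6.26, and after the quantile normalization it was also above heart for set 2. The part of blood content in the C/EBP results was not tested. Of 6 measured neutrophil markers, 7 adipocyte markers and 6 hepatocyte markers 0 were called in any tissue at 1 h. Neutrophil means ran from 3.71 to 4.45 in PH3 hearts and 3.85 to 4.38 in Air hearts, and from 5.40 to 6.61 in PH3 lungs and 5.80 to 6.28 in Air lungs. Of 9 monocyte and macrophage markers 1 was called at 1 h, Cd14 in lung (0.42 ± 0.12, adjusted p = 0.0362), and of 6 endothelial markers 2 were, Cldn5 (0.63) and Kdr (-0.49) in lung, where 4.24% of all probe sets were called. No B cell, T cell, neuron, oligodendrocyte, olfactory bulb, heart muscle, kidney or lung epithelium marker was called at 1 h. In brain stem the 6 hepatocyte markers were all positive, with means of 5.13 to 9.19 in PH3 rats and 5.22 to 5.49 in Air rats, and their part in the Cebpb result there was not tested. At 3 h in lung C1qb (1.04), Cd5 (0.90) and Cd3e (0.57) rose and Vwf (-0.55) fell, beside the neutrophil genes above. These calls too ended with the RNA index as a covariate (adjusted p from 0.447 to 0.820), at 0.53, 0.62, 0.57 and -0.15.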

How the data were processed

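The authors deposited log2 intensities of Affymetrix 3′ arrays. Per the submitters' processing notes they used Partek and RMA; versions, and which arrays were normalized together, are not given in these sources. Of 31139 probe sets, 97 controls were left out and 31042 tested without a filter; 19063 name 1 gene, 572 several and 11407 none, and genes carry the platform annotation's symbols. Groups came from the labels. Each tissue was fitted in R 4.3.3 with limma 3.58.1, with 1 coefficient for each of its 8 groups, and moderated two-sided tests were adjusted by Benjamini-Hochberg. In the same fits F tests compared effects between times and Air groups between times. Effects between tissues were compared by Welch's weighting of the limma effects. Air levels between tissues were compared in a limma fit of all Air arrays. Lists use a gene's brightest probe set. The members and lists were chosen with earlier results of these data known. Named from a list are at most 5 called members per contrast in which a C/EBP gene was called, not always those with the largest effects. Those named at 3 h were chosen after their values were seen, as the 5 or fewer called there. Rat numbers pair tissues of 1 animal, not PH3 with Air: 162 of 164 arrays matched their own rat best over 200 probe sets, and the consensus correlation was 0.0168. The exceptions were the Air heart of Rat370 at 3 h (r = -0.02 with its own rat) and the PH3 blood of Rat341 at 24 h (0.07). Both stand apart and were kept in the main fits. No 2 arrays were identical (highest r 0.9957). Sequences are RefSeq's (GRCr8). The fits were tested on simulated data with independent normal noise for each array, without rats shared between tissues or arrays that stand apart. The number of arrays limits the precision. Alternatives were the settings described in the closing section.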

Additional observations from a re-analysis of the deposited data

Results flagged for a closer look

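Of all groups of a probe set with at least 4 arrays, 20 held an array whose gap to the next was wide for the group's range, and chance alone, at 1 in 20, gives about 18.8 such groups among those examined. For Cebpa they were Rat326 in PH3 lung at 24 h (6.45, others 5.92 to 6.00), Rat399 in PH3 brain stem at 3 h (3.09, others 3.23 to 3.24), Rat382 in Air heart at 6 h (5.32, others 3.40 to 3.51) and Rat394 in Air olfactory bulb at 6 h (2.93, others 3.19 to 3.22). For Cebpb it was Rat506 in PH3 olfactory bulb at 1 h (5.97, others 6.61 to 6.71).

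For Cebpd set 1 they were Rat508 in PH3 olfactory bulb at 1 h (8.57, others 7.97 to 8.04), Rat365 in Air kidney at 3 h (5.72, others 6.50 to 6.56) and Rat400 in Air olfactory bulb at 3 h (7.28, others 7.81 to 7.85). For set 2 they were Rat370 in Air heart at 3 h (7.96, others 7.12 to 7.16), Rat365 in Air kidney at 3 h (5.45, others 6.14 to 6.28) and Rat352 in Air lung at 1 h (8.19, others 8.84 to 8.88). For set 3 it was Rat394 in Air heart at 6 h (4.02, others 3.29 to 3.37). Without Rat352 the lung effect of set 2 at 1 h was 0.88 (adjusted p = 0.151).

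For Cebpg set 1 they were Rat381 in PH3 olfactory bulb at 6 h (9.86, others 7.83 to 7.98), Rat399 in PH3 kidney at 3 h (8.69, others 8.60 to 8.61), Rat325 in PH3 brain stem at 24 h (7.66, others 7.82 to 7.85), Rat400 in Air olfactory bulb at 3 h (8.63, others 7.72 to 7.81) and Rat382 in Air olfactory bulb at 6 h (8.31, others 7.76 to 7.84). For set 2 they were Rat381 in PH3 lung at 6 h (6.996, others 7.13 to 7.14) and Rat400 in Air brain stem at 3 h (5.11, others 5.53 to 5.61). For Cebpe it was Rat394 in Air lung at 6 h (3.40, others 3.19 to 3.22). The olfactory bulbs of Rat381 and Rat400 and the heart of Rat370 are among the arrays that stand apart over all probe sets.

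The effect of PH3 on Cebpb differed between times in heart (adjusted p = 0.0342) and in lung (adjusted p = 0.0138).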

How the results depend on the processing

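The 9 calls rest on a spread estimated from all 8 groups of a tissue. With the groups of 1 h alone 0 C/EBP genes were called in heart, kidney, lung and brain stem (Cebpb adjusted p = 0.0628, 0.123, 0.171 and 0.352), when all probe sets called numbered 9, 121, 519 and 18. With the rat as replicate block, all tissues also share 1 spread per probe set. In that fit the heart kept 2 genes, Cebpb and Cebpd, and kidney, lung and brain stem had 0. Blood there had 2 at 1 h, 1 at 3 h, 1 at 6 h and 2 at 24 h. The test between tissues at 1 h then called 1 gene, Cebpd. Without the arrays that stand apart, an alternative chosen after seeing the data, kidney had 1 gene, the time test of heart 0 and the Air time test of lung 0, which was also 0 with the 3′ index as covariate. Leaving out 1 rat at a time gave 0 to 2 genes in heart, 1 to 2 in kidney, 0 to 2 in lung and 0 to 2 in brain stem. It gave 0 to 1 in the time tests of heart and brain stem, 0 to 2 in kidney and 1 to 2 in lung, and 0 to 1 in the Air time test of lung. Every effect called at 1 h kept its sign under all these settings. Those that change only the spread, such as the 1 h groups alone or the replicate block, could not change the sign. Called tissue pairs of Air fell to 5 of 15 for Cebpd set 3 (at 3 h and at 6 h alone) and 7 for Cebpe (at 3 h alone). Reversed were Cebpa heart minus brain stem (-0.0276, 3 h alone), Cebpd set 1 kidney minus blood (-0.30 after quantile normalization, -0.49 at 3 h alone), set 2 heart minus blood (-0.33, quantile) and blood minus kidney (-0.19, 6 h alone) and Cebpg set 1 brain stem minus blood (-0.45, quantile). The cause was not tested. With every probe set of a gene counted, 8, 14, 16 and 12 of 21 sets of glucocorticoid-induced genes were higher in heart, kidney, lung and brain stem. For the hormone and cAMP list 4, 3 and 5 of 21 sets were called in heart, kidney and lung, against 1 gene in each by the brightest set, and for the regulators 2 of 18 sets in lung, against 1 gene.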
